A study of Mus musculus with 28 samples.

Results

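The cytosolic ribosomal protein genes of mouse regulatory T (Treg) cells were taken from a transcript table as the rows whose symbol is Rpl or Rps followed by a number, with an optional a, x, y or l suffix, together with Rplp0, Rplp1, Rplp2 and Rpsa. The rule found 89 of 53801 rows, 53 of them named for the large (60S) subunit and 36 for the small (40S) subunit. All 89 had one entry in the GENCODE M21 annotation of GRCm38, where 83 were protein coding and 6 were pseudogenes (Rps12l1, Rps4l, Rps3a2, Rps3a3, Rpl6l and Rpl32l). The genes lay on 19 chromosomes. Rows named as pseudogenes with a ps suffix were not members and are described apart, and the ribosomal proteins filed under other symbols (among them Fau, Rack1 and Rpl36al) are given as a separate list.

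RNA was measured in Treg cells sorted from mice with CT2A tumors, a mouse glioblastoma (GBM) model, grown in the forebrain. The labels give no strain, sex or age; the study's methods name C57BL/6 mice among its hosts and used animals of both sexes. The mice received 4 doses of 250 µg, given every 3 days, of either the isotype control antibody IgG2a or a combination of antibodies to PD1 and GITR (αPD1 + αGITR), and all groups carried tumors. Cells from spleen or tumor were sorted as TCR+CD4+CD25hi CD127lo with TCR+CD8+ cells dumped, and full-length cDNA libraries were made with Smart-Seq2. The 27 libraries used comprised 7 of splenic Treg cells under IgG2a, 8 of splenic Treg cells under αPD1 + αGITR, 5 of GBM Treg cells under IgG2a and 7 of GBM Treg cells under αPD1 + αGITR. Several titles share a number whose meaning is not given: 79 in 4 splenic IgG2a libraries, 70 in 3 and 72 in 2 splenic αPD1 + αGITR libraries, and 70 and 73 in 2 GBM αPD1 + αGITR libraries each. The animals named in the study's text are as many as the GBM libraries but fewer than the splenic libraries of either treatment, so some splenic libraries would share an animal. The tests took every library as independent, and such sharing makes p-values that use splenic libraries too small. Most of the numbers also occur in both tissues, and if they name animals, the tissue comparisons leave out a pairing. The effect of that pairing on the p-values, which could go the other way, was not tested. The p-values measure the spread between libraries, which may be partly technical. Levels are in TPM, a transcript share scaled by transcript length, which keeps no read depth, so the depth is unknown and no counting interval can be given. Since TPM are shares of one total, fewer cells of a type and less RNA per cell cannot be told apart.

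Each ribosome is built from ribosomal RNA and one copy of most ribosomal proteins, with the acidic stalk proteins P1 and P2 in several copies anchored on P0. Because the proteins are needed in equal numbers, their mRNAs are abundant and are regulated together, and in vertebrates most carry a terminal oligopyrimidine (TOP) tract, a run of C and T bases beginning at the first transcribed base, through which mTORC1 signaling controls their translation. In T cells, activation is known to raise ribosome production ahead of growth and division.

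The transcription start sites show this tract in the members for which an annotated start falls on it. The windows below run from 10 bases before to 20 bases after the RefSeq start (GRCm38.p6), on the strand of the gene, and are shown as examples of starts with such a run and, for Rpl5, without one. Capitals mark a C followed by at least 4 pyrimidines, with no pyrimidine before it, that begins within 5 bases of the start. Rps6, the small subunit protein phosphorylated by S6 kinases, lies at chr4:86857348-86857377 on the minus strand, Rps27 at chr3:90213629-90213658 on the minus strand, Rpl18 at chr7:45718061-45718090 on the plus strand and Rpl5 at chr5:107900518-107900547 on the plus strand.
Rps6: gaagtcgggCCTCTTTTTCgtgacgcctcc
Rps27: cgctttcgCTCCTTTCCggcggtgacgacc
Rpl18: ctcgcaggccgCTCTTTCCCCgcccactcc
Rpl5: cgtcgcttgcgtgctggtggtgctacatac

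Promoter sequences were available for 64 of the 89 members, and 18 of them (28.1%) had such a run at an annotated start, against 3926 of 27025 genes (14.5%) in the whole promoter table. A match is a description of the letters near an annotated start, and Rpl5 shows only that no such run lies at its RefSeq start.

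Reads cannot tell identical copies apart, while paralogs with many differences can be told apart, and a pair of each kind is shown. The first 60 coding bases of Rps12 (chr10:23785183-23787275, minus strand), which encodes a small subunit protein, are the same in Rps12l1 (chr7:56014016-56014414, plus strand), an intronless pseudogene of 399 bases. Over all 399 bases Rps12l1 aligned to an Rps12 transcript with 0 mismatches. By contrast, Rps27 (chr3:90212522-90213651) and its paralog Rps27l (chr9:66946086-66949516), a protein-coding gene known as a target of p53, matched in 199 of 251 aligned bases (79.3%). The stretch of 60 coding bases (184 to 243, counted from the first base of the Rps27 start codon) with the most differences is shown, with the 14 differing bases in capitals.
Rps12 and Rps12l1: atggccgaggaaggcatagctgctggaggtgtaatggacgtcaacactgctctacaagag
Rps27: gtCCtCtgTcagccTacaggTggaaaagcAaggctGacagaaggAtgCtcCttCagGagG
Rps27l: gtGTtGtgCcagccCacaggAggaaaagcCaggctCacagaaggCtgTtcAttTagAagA

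The sorted cells carried the Treg markers fixed for the check. All 8 of them (Foxp3, Il2ra, Ctla4, Ikzf2, Cd4, Cd3e, Cd3g and Trac) were above 0 in every library, and their summed level ran from 229 to 2289 TPM in splenic and from 1308 to 3184 TPM in GBM libraries. The 4 markers of CD8 T and NK cells summed to 43.2 TPM at most. The 10 macrophage and microglia markers summed to 10.5 to 356 TPM in spleen and 45.9 to 5902 TPM in GBM, with the highest values in GBM IgG2a replicate 79_a (5902) and GBM αPD1 + αGITR replicate 73_a (2238), and the erythroid markers reached 28398 TPM in spleen against 2371 TPM in GBM. The 6 B-cell markers summed to 36.6 to 1368 TPM, most of it Ighm. The macrophage marker Adgre1 was listed at 0 in 6 of 7 splenic IgG2a, 5 of 8 splenic αPD1 + αGITR, 2 of 5 GBM IgG2a and 4 of 7 GBM αPD1 + αGITR libraries. In the same order of groups the NK marker Ncr1 was listed at 0 in 5, 5, 3 and 5 libraries and the neuronal Snap25 in 3, 7, 2 and 5. Other markers of these lists were seldom or never at 0. In the same order Lyz2 was at 0 in 0, 0, 0 and 1 libraries and C1qb in 0, 1, 0 and 0. Mbp of the neuron and glia list and Cd8a were above 0 in every library. The 6 neuron and glia markers summed to 2.00 to 171 TPM. Of the libraries, GBM IgG2a library tumor_369_a had the fewest features above 1 TPM (7702, against 10175 to 17460 in the other libraries). Within groups no 2 libraries were alike: over 80 pairs, at most 4.21% of values were identical and the highest correlation of log2 levels over 6225 rows was 0.82.

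Most members were among the abundant transcripts of these cells. Of the 89, 81 had a mean above 10 TPM over the 27 libraries and 72 above 100 TPM, and 40 were among the 200 rows with the highest means. The median of the member means was 284 TPM. Among the most abundant were the large subunit genes Rpl13 (mean 2177 TPM, chr8:123102350-123105244) and Rpl19 (1045 TPM), the stalk base Rplp0 (1558 TPM) and the stalk protein Rplp1 (1371 TPM). Among members above 10 TPM the 48 of the large subunit had a median of 272 TPM and the 33 of the small subunit a median of 479 TPM.

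**Figure D1:**
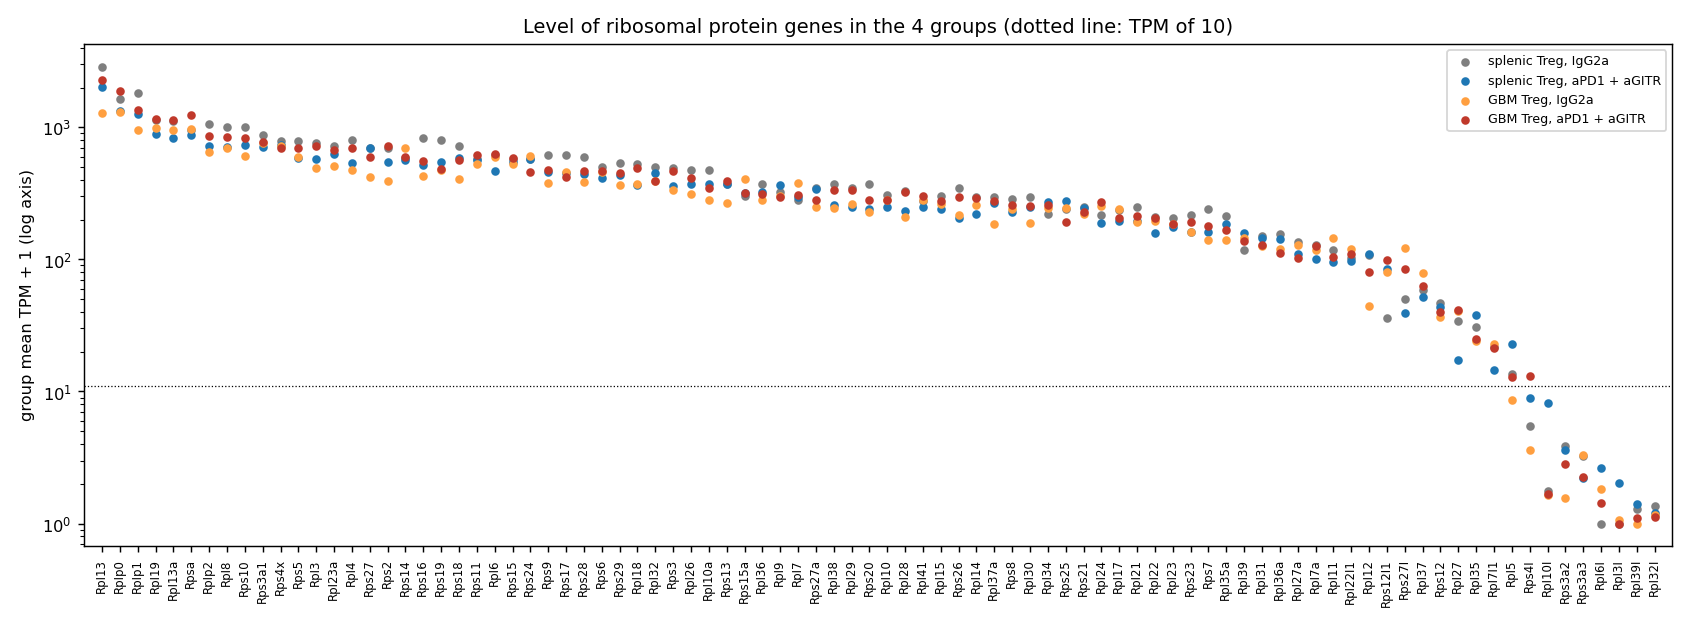
Mean level (TPM + 1, log axis) of the ribosomal protein genes reported here in the 4 groups, with genes ordered by their mean over all 27 libraries; each point is a group mean. The levels fall slowly from Rpl13 (2177 TPM) to about Rps27l (67.9 TPM) and then steeply, and the points of the 4 groups lie close together except for a few genes at the low end.

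The lowest members were paralogs and pseudogenes. Rpl32l (0.213 TPM), Rpl39l (0.229 TPM), Rpl3l (0.320 TPM), Rpl6l (0.754 TPM) and Rps3a3 (1.69 TPM) had the 5 lowest means over all libraries. Rpl3l, the paralog of Rpl3 used in heart and skeletal muscle, and Rpl39l and Rpl10l, paralogs used in the male germline, stood against 646 TPM for Rpl3, 139 TPM for Rpl39 and 278 TPM for Rpl10, while Rpl10l itself had a mean of 2.61 TPM and reached 28.4 TPM in 1 splenic αPD1 + αGITR library. The paralog Rpl22l1 (106 TPM) was closer to Rpl22 (190 TPM), an RNA-binding protein required in early T-cell development. Rpl7l1, which works in making the large subunit, had 18.7 TPM against 311 TPM for Rpl7.

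A low value was also listed for a core large subunit gene. Rpl5, which carries the 5S ribosomal RNA and binds MDM2 together with Rpl11, had a mean of 14.2 TPM, 81st of the 89, and was 7.05, 7.68, 9.43, 9.31 and 4.53 TPM in the GBM IgG2a libraries tumor_76_a, tumor_78_a, tumor_77_a, tumor_79_a and tumor_369_a, the order used for this group throughout. In the other groups its lowest, median and highest values were 0, 8.10 and 35.8 TPM in splenic IgG2a, 4.72, 17.8 and 65.4 TPM in splenic αPD1 + αGITR, and 5.46, 12.5 and 17.0 TPM in GBM αPD1 + αGITR libraries. The 4 groups overlapped. Its partner Rpl11 had a mean of 112 TPM. The 2 pseudogene rows of Rpl5 summed to a mean of 3.67 TPM.

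The summed level of the members differed widely between libraries of 1 group. Across splenic IgG2a libraries the sum was 3971 TPM at the lowest, 30271 TPM at the median and 98476 TPM at the highest, a 24.8-fold range. The corresponding values were 7067, 27047 and 85590 TPM in splenic αPD1 + αGITR libraries, and 22291, 41846 and 56491 TPM in GBM αPD1 + αGITR libraries. The 5 GBM IgG2a libraries had 26927, 22388, 14273, 56316 and 35574 TPM. The splenic groups thus spanned the whole range of the GBM groups and the 4 groups overlapped.

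The share taken by the most abundant features moved with this sum. The 10 features with the highest mean TPM (among them CT010467.1, Gm26870, Gm10800, the mitochondrial ribosomal RNA mt.Rnr2 and Actb) took from 31.9% to 78.3% of TPM in a library. In the 5 libraries whose member sum was below 10000 TPM, all splenic, they took 68.4% to 78.3%, and in the others from 31.9% to just under 70%. Both quantities are parts of one total. With those 10 features taken out of the total, the member share still ran from 1.83% to 16.1%, an 8.81-fold range, and whether the abundant features set the member level was not tested. The 24 other translation elongation and TOP mRNAs of the fixed list, such as the elongation factors Eef1a1 and Eef2, the growth-related protein Tpt1 and the nucleolar chaperone Npm1, had their lowest sum (1501 TPM) and their highest (21363 TPM) in the same 2 libraries as the members, splenic IgG2a replicates 79_a and 79_b.

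**Figure D2:**
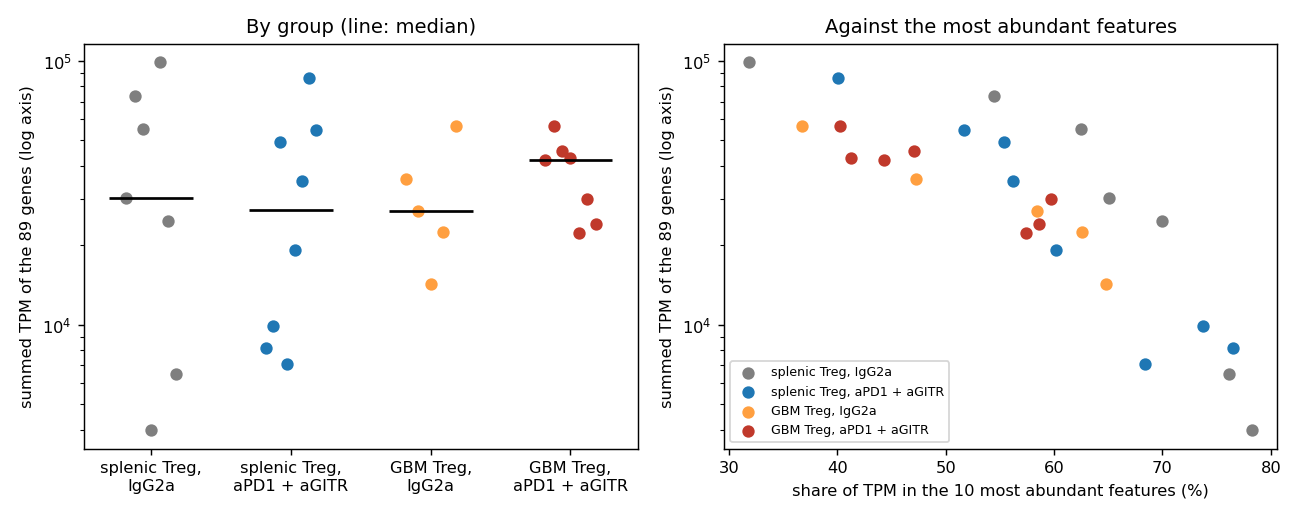
Summed TPM of the 89 genes in each of the 27 libraries on a log axis, by group with the group median as a line (left) and against the share of TPM in the 10 most abundant features in percent (right); each point is a library. Splenic libraries run from 3971 to 98476 TPM and GBM libraries from 14273 to 56491 TPM, and libraries with a low sum have a high share in the 10 features.

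The stalk genes and the members with a known second role varied as widely. Rplp0 was 1054, 1067, 714, 2429 and 1244 TPM in GBM IgG2a libraries, and its lowest, median and highest values were 1030, 1847 and 2615 TPM in GBM αPD1 + αGITR, 186, 1271 and 4845 TPM in splenic IgG2a, and 316, 1181 and 2653 TPM in splenic αPD1 + αGITR libraries. Rplp2 had group means of 1066, 720, 647 and 853 TPM in splenic IgG2a, splenic αPD1 + αGITR, GBM IgG2a and GBM αPD1 + αGITR libraries. Rpsa, a small subunit protein also known as the laminin receptor, had means of 958, 868, 967 and 1241 TPM in the same order. Rps6 had 505 ± 435, 412 ± 334, 456 ± 232 and 464 ± 161 TPM (SD, n = 7, 8, 5 and 7), and Rps27a, which is made as a fusion with ubiquitin, had 344, 342, 250 and 281 TPM. Each of these ranges overlapped between all 4 groups.

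After the common level of a library was taken off, little spread was left in most members. For the 81 members above 10 TPM the SD of log2(TPM + 1) within groups had a median of 1.39. When the median of the other members in the same library was subtracted, it fell to a median of 0.40, and it became smaller in 79 of the 81. The same subtraction over 265 other rows of like level (mean above 190 TPM, the lower quartile of the members) took their median SD from 1.19 to 1.06, and it became smaller in 147 of them (55.5%). Over all 6114 other rows above 10 TPM the median went from 1.43 to 1.58. The median comes from the members themselves, so this is a description of how closely they tracked each other and carries no test.

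**Figure D3:**
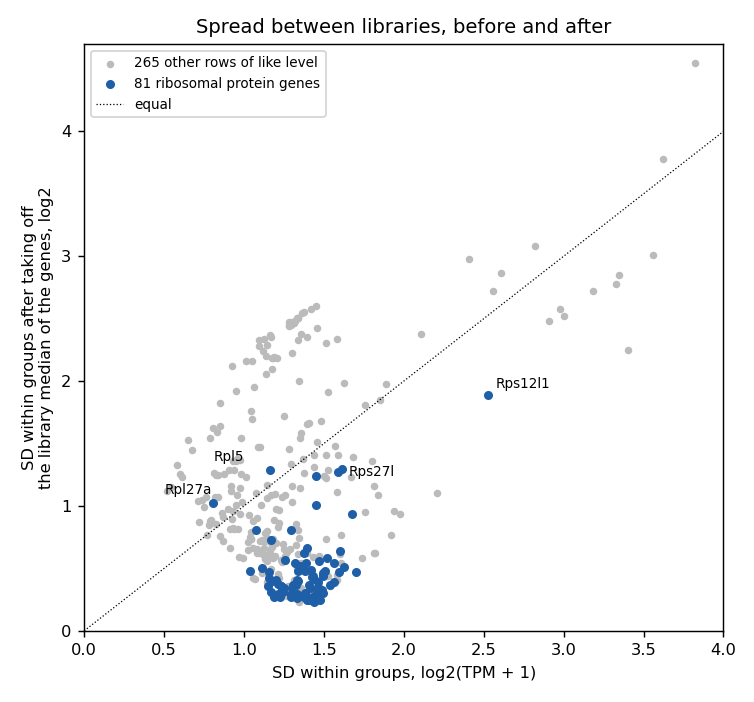
SD within groups of log2(TPM + 1) for each gene (horizontal axis) against the SD after subtracting the median of the ribosomal protein genes in each library (vertical axis); the dotted line marks equal values. Most of the 81 ribosomal protein genes lie far below the line near 0.40, while the 265 other rows of like level lie on both sides of it, and Rpl5 and Rpl27a are the 2 members above the line.

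Among the 81 members above 10 TPM, the tightest were Rpl18 (SD 0.23 after subtraction), Rps19 (0.24), a gene mutated in Diamond-Blackfan anemia, and Rps18 (0.25). The loosest of these 81 were Rps12l1 (1.89), Rpl12 (1.29), Rpl5 (1.29), Rps27l (1.27) and Rpl7l1 (1.24). The Spearman correlation of a library's member levels with the mean of the other libraries ran from 0.80 (splenic IgG2a replicate 79_a) to 0.98, and was 0.81 in GBM IgG2a library tumor_369_a. The 60S to 40S ratio of summed TPM was 1.53 ± 0.235 (SD, n = 27), with values of 1.20 to 2.17 in spleen and 1.21 to 1.80 in GBM.

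GBM and splenic Treg cells were compared first under IgG2a. On the log2(TPM + 1) scale 55 of 81 tested members (67.9%) were higher in GBM, as were 66.1% of all 7380 genes tested. Medians were 0.48 for all genes and 0.18 for the members. This direction turned with the scaling: the median was -0.19 after quantile normalization, -0.17 with the 10 most abundant features taken out, -0.55 with limma's library weights and -0.73 without the splenic libraries in which those features exceeded 70% (replicates 79_a and 79_d). Leaving out 1 library gave medians from -0.27 (without splenic replicate 79_a) to 0.52 (without splenic replicate 79_b), and the median was also negative without splenic replicate 79_d (-0.13) or GBM replicate 79_a (-0.05). With limma and Benjamini-Hochberg adjustment over all genes tested, 0 of 81 members had an adjusted p under 0.05, against 0.569% of all genes. An unadjusted p under 0.05 was found for 1 of 81, against 9.93% of all genes. At a looser threshold (unadjusted p under 0.05 and over 2-fold), 1 of 81 members was called, against 9.93% of all genes. Without the 2 splenic IgG2a libraries above 70%, an alternative chosen after seeing the data, 10 members passed this threshold, all of them lower in GBM, against 10.8% of all genes, and with library weights 2 passed, both lower in GBM, against 16.6% of all genes. A row was tested when either group averaged over 10 TPM, so some rows entered through 1 group alone. Among the members this held for Rpl5 here, for Rps4l in the tissue comparison under αPD1 + αGITR, for both in the GBM treatment comparison and for none in spleen. Among markers over 10 TPM in both groups, 3 of 8 Treg markers were higher in GBM (median log2 difference 1.43) and 3 of 3 erythroid markers lower (median -3.83) at the unadjusted, over 2-fold threshold, and 0 of 3 macrophage and microglia markers passed. The summed macrophage and microglia markers averaged 1296 TPM in GBM and 64.6 TPM in spleen, and the neuron and glia markers 70.3 and 8.80 TPM. Their part in the result was not tested.

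The 1 member called was the pseudogene Rps12l1. It was listed at 0, 115.8, 55.8, 130.1 and 94.6 TPM in the 5 GBM IgG2a libraries, and at 0 in 4 of the 7 splenic IgG2a libraries, where the others had 6.03, 118.6 and 120.9 TPM. The groups overlapped. The log2 difference was 2.88 (SE 1.27, limma, unadjusted p = 0.0301, adjusted p = 0.432), and an exact two-sided permutation test over the 792 splits gave p = 0.173. Its identical copy Rps12 was 34.3, 31.3, 27.9, 62.7 and 22.1 TPM in the GBM IgG2a libraries, and 10.5, 42.4 and 85.3 TPM at the lowest, median and highest in splenic IgG2a. With pseudogene rows summed into their parent genes, an alternative chosen after seeing the data, 0 members passed either threshold in this comparison; Rps12l1 then has no value of its own. The count of 1 was also 0 without splenic replicate 79_a, 79_c or 79_d, library spleen_369_a, GBM replicate 78_a or 79_a or library tumor_369_a, and 2 without splenic replicate 79_b.

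The 4 members next in order of p did not pass either threshold. Rps27l had a log2 difference of 1.36 (SE 0.83, adjusted p = 0.594), Rpl11 of 1.21 (adjusted p = 0.641), Rps15a of 1.06 (adjusted p = 0.673) and Rpl12 of -1.09 (adjusted p = 0.674), all by limma. The precision was limited: the 95% interval of a member extended a median of 1.69 to either side on the log2 scale, and the intervals of 44 of 81 members lay within 2 on either side of 0.

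Under αPD1 + αGITR few members passed a threshold although many other genes did. Of 82 tested members 80 (97.6%) were higher in GBM, against 77.6% of all 7506 genes tested. The members had a median log2 difference of 0.70, against 0.95 for all genes. Their median was 0.26 after quantile normalization and 0.34 with the 10 most abundant features taken out. With each library left out it was 0.44 (without splenic replicate 72_b) to 1.00 (without splenic replicate 74_a). By limma 0 of 82 had an adjusted p under 0.05, against 17.5% of all genes, and 2 had an unadjusted p under 0.05, against 40.3%. At the unadjusted, over 2-fold threshold 2 of 82 were called, against 40.2% of all genes. With limma's library weights these counts were 4 and 21, all 21 higher in GBM, against 28.3% and 43.1% of all genes. The log2 differences of the members were bunched, with an interquartile range of 0.31 against 1.45 for all genes. Their median SE was 0.58 against 0.66 for all genes, and the 95% interval extended a median of 1.19 to either side, so a 2-fold difference lay within the error of most members. The summed Treg markers were also higher in GBM (means of 2312 and 936 TPM in GBM and spleen). Of the 8 Treg markers, 5 passed the adjusted and 7 the unadjusted threshold. The macrophage and microglia markers were higher too (means of 432 and 121 TPM). Of the 5 over 10 TPM in both groups, 3 passed the unadjusted and 0 the adjusted threshold. The 2 B-cell markers over that level were higher in GBM (median 1.35), and 1 passed the adjusted threshold. The erythroid markers were lower (mean sums of 43.6 and 11188 TPM), and the 2 over that level in both groups passed the adjusted threshold. The part of these markers in the result was not tested.

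The counts moved with single libraries. Without splenic αPD1 + αGITR replicate 74_a, which had the highest member sum of its group (85590 TPM), 20 of 82 members passed the unadjusted threshold, all higher in GBM, and 3 the adjusted one, against 42.5% and 22.4% of all genes. The unadjusted count was 7 without splenic replicate 70_c (42.8% of all genes), 6 without splenic replicate 80_a (43.7%), 3 without splenic replicate 70_b (36.5%) and 1 without GBM replicate 72_a (35.7%). The adjusted count was 1 without splenic replicate 73_a (30.1%) or 80_a (22.8%). Without the 2 splenic αPD1 + αGITR libraries above 70% in the abundant features, 0 passed either threshold, against 29.7% and 6.35% of all genes, and the median was 0.17.

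Rpl27, a large subunit protein, was the member with the lowest p. It had 20.7, 27.6 and 93.0 TPM at the lowest, median and highest in GBM αPD1 + αGITR libraries and 4.62, 14.2 and 39.9 TPM in splenic ones. The groups overlapped, and 2 GBM libraries exceeded the highest splenic value. The log2 difference was 1.39 (SE 0.54, limma, unadjusted p = 0.0165, adjusted p = 0.0669), with an exact two-sided permutation p = 0.0107 over 6435 splits. Its ps3 copy, an intronless pseudogene whose 411 bases all match a Rpl27 transcript, had a mean of 355 TPM over all libraries against 31.2 TPM for Rpl27 itself. The copy had means of 414 TPM in GBM and 289 TPM in spleen under αPD1 + αGITR. Reads from identical bases cannot be assigned to one of the rows.

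Rps27l had 43.3, 75.5 and 127.2 TPM at the lowest, median and highest in GBM αPD1 + αGITR libraries and 0, 44.7 and 89.8 TPM in splenic ones, with 3 GBM libraries beyond the splenic maximum. The log2 difference was 1.90 (SE 0.76, limma, unadjusted p = 0.0200, adjusted p = 0.0743; exact permutation p = 0.0364). With 1 library left out the difference of Rps27l was 1.28 (without splenic replicate 72_c) to 2.21 (without splenic replicate 74_a). It was 1.22 with pseudocount 10 and 2.37 with pseudocount 0.1. Under IgG2a its values were 48.9, 65.6, 30.4, 240.4 and 218.4 TPM in GBM and 6.75, 30.1 and 112.6 TPM in spleen. The parent Rps27 had GBM means of 420 and 597 TPM and splenic means of 699 and 692 TPM under IgG2a and αPD1 + αGITR. The log2 ratio of Rps27l to Rps27 within a library was -2.12 ± 0.89 in GBM and -3.46 ± 0.94 in spleen under IgG2a (SD, n = 5 and 7, exact permutation p = 0.0328, 0.263 after Benjamini-Hochberg adjustment over 16 paralog comparisons), and -2.82 ± 0.46 and -3.93 ± 2.11 under αPD1 + αGITR (n = 7 and 8, exact permutation p = 0.211). These ratios were taken on TPM + 1.

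Among the 3 members next in order, Rpl24 had a log2 difference of 1.15 (adjusted p = 0.138), Rpl38, a protein known for selective translation of Hox mRNAs, of 1.19 (adjusted p = 0.165) and Rpsa of 0.97 (adjusted p = 0.170), all by limma. None passed either threshold.

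**Figure D4:**
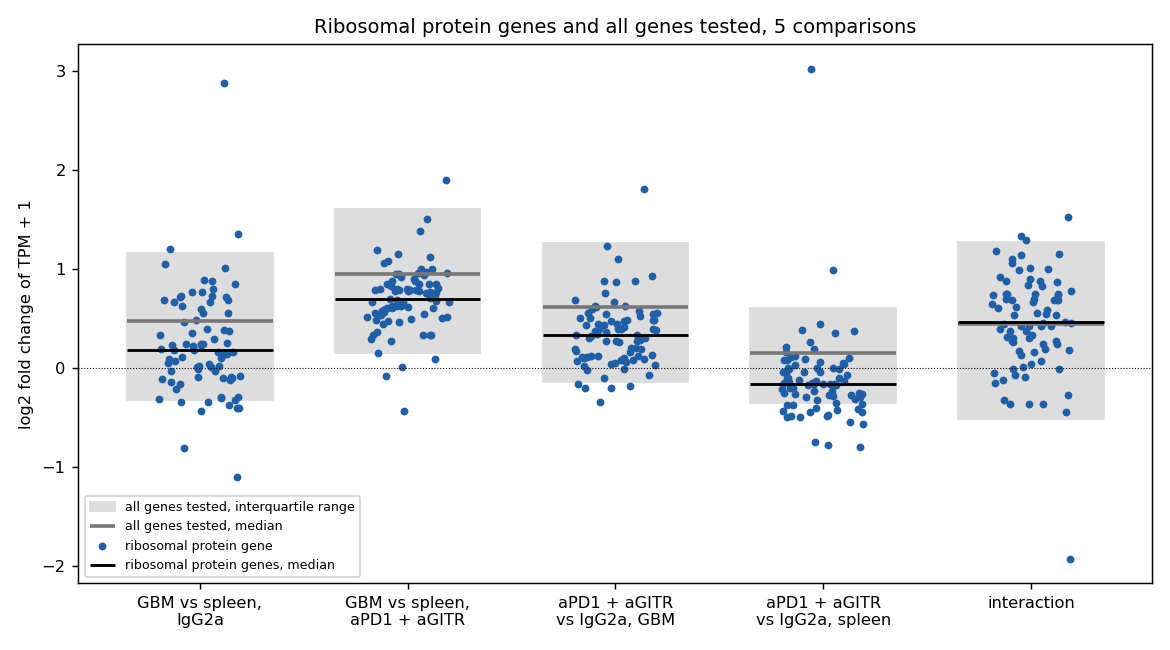
Log2 fold change of each tested ribosomal protein gene in the 5 comparisons (points) with their median (black line), over the interquartile range and median of all genes tested (grey). Most points lie within the grey range, with medians of 0.18, 0.70, 0.33, -0.15 and 0.46, and Rps12l1 lies apart at 2.88, 3.03 and -1.92.

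In GBM Treg cells αPD1 + αGITR was compared with IgG2a. Of 82 tested members 73 were higher under αPD1 + αGITR, with a median log2 difference of 0.33 against 0.62 for all 7848 genes; the median was -0.01 with TMM-type factors, 0.19 after quantile normalization and 0.70 with limma's library weights. Leaving out 1 library moved the median from 0.05 (without GBM IgG2a replicate 77_a) to 0.58 (without GBM IgG2a replicate 79_a), and it was 0.22 without GBM αPD1 + αGITR replicate 70_b. By limma 0 of 82 had an adjusted p under 0.05 (0% of all genes) and 3 had an unadjusted p under 0.05 (22.3% of all genes). The unadjusted, over 2-fold threshold was passed by 1 of 82, against 21.7% of all genes. With library weights 1 passed the adjusted and 4 the unadjusted threshold, against 3.35% and 17.8% of all genes, and after quantile normalization 2 passed the unadjusted one, against 15.4%. The 95% interval extended a median of 0.91 to either side, and 77 of 82 intervals lay within 2 on either side of 0. All 8 Treg markers had a positive log2 difference (median 0.26), and 0 passed either threshold. Mean sums under αPD1 + αGITR and IgG2a were 432 and 1296 TPM for macrophage and microglia markers, 39.9 and 70.3 TPM for neuron and glia markers and 43.6 and 511 TPM for erythroid markers, and the B-cell marker Igkc averaged 24.5 and 3.15 TPM. Their part in the result was not tested. Without GBM IgG2a replicate 79_a, the library with 5902 TPM of macrophage and microglia markers and the highest member sum of its group, 6 members passed the unadjusted threshold, all higher under αPD1 + αGITR, against 26.6% of all genes. The count was 3 without GBM IgG2a replicate 76_a (24.1% of all genes) or GBM αPD1 + αGITR replicate 73_b (20.9%), 2 without GBM IgG2a replicate 78_a (22.8%) or library tumor_369_a (15.0%), and 0 without GBM αPD1 + αGITR replicate 70_b (17.2%) or 73_a (19.1%).

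Rpl13 had 1557, 1506, 953, 2057 and 397 TPM in the GBM IgG2a libraries and 1039, 2385 and 3456 TPM at the lowest, median and highest in GBM αPD1 + αGITR libraries, of which 5 of 7 lay above every IgG2a value. The log2 difference was 0.93 (SE 0.39, limma, unadjusted p = 0.0267, adjusted p = 0.184; exact permutation p = 0.0455). The lowest value was in library tumor_369_a, and without that library the log2 difference was 0.56 (adjusted p = 0.410, limma). Rps2, a small subunit protein, had 537, 258, 271, 603 and 278 TPM in GBM IgG2a and 302, 752 and 1186 TPM at the lowest, median and highest in GBM αPD1 + αGITR libraries, with a log2 difference of 0.87 (SE 0.39, limma, unadjusted p = 0.0385, adjusted p = 0.205; exact permutation p = 0.0530).

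The member that passed the over 2-fold threshold was Rps4l, a transcribed pseudogene related to the X-linked Rps4x (739 TPM). Its values were low: 4.36, 4.60, 3.93, 0 and 0 TPM in GBM IgG2a, and 3.10, 7.56 and 40.6 TPM at the lowest, median and highest in GBM αPD1 + αGITR libraries, with overlap between the groups. The fitted log2 difference was 1.81 (SE 0.79), and it was 0.67 with pseudocount 10 and 3.12 with pseudocount 0.1. Rps4l entered the test through the αPD1 + αGITR group, whose mean passed 10 TPM only with replicate 73_a (40.6 TPM), while the IgG2a mean was 2.58 TPM, so the difference itself decided that it was tested, and its call is given as a description. It was not tested without replicate 73_a, and with the filter required in both groups 0 members were called. The next members by p were Rpl12 (log2 difference 1.23, adjusted p = 0.268, limma) and Rplp1 (0.63, adjusted p = 0.298, limma), which did not pass.

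In splenic Treg cells the treatment groups were compared in the same way. Of 81 tested members 23 (28.4%) were higher and 58 lower under αPD1 + αGITR, while 58.1% of all 6634 genes were higher. The members had a median log2 difference of -0.15, against 0.15 for all genes. Their median was 0.09 with the number of detected genes as a covariate and -0.79 with limma's library weights. The sign rested on single libraries: the median was positive (0.02 to 0.21) without splenic IgG2a replicate 76_a, 77_a or 79_b or splenic αPD1 + αGITR replicate 70_a, 70_b or 72_b, and -0.63 without splenic IgG2a replicate 79_a. By limma 0 members had an adjusted p under 0.05 (0% of all genes) and 1 had an unadjusted p under 0.05 (2.53% of all genes). The same 1 passed the unadjusted, over 2-fold threshold, against 2.53% of all genes. The 95% interval extended a median of 1.63 to either side. All 5 erythroid markers had a positive log2 difference (median 1.53, 0 past either threshold), with mean sums of 11188 TPM under αPD1 + αGITR and 2637 TPM under IgG2a, and their part in the result was not tested.

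That member was again Rps12l1. In the 8 splenic αPD1 + αGITR libraries it was listed at 0, 65.4 and 270.5 TPM at the lowest, median and highest, against 4 listings of 0 among the 7 splenic IgG2a libraries given above. The log2 difference was 3.03 (SE 1.15, limma, unadjusted p = 0.0134, adjusted p = 1.00), and the exact permutation p was 0.0640. Its size depended on the pseudocount, with 1.53 at pseudocount 10 and 4.52 at pseudocount 0.1. With 1 library left out the difference of Rps12l1 was 2.63 (without splenic IgG2a replicate 79_d) to 3.80 (without splenic αPD1 + αGITR replicate 70_a). Its identical copy Rps12, looked at after its values were seen, had a log2 difference of -0.80 (adjusted p = 1.00, limma). Since reads cannot be assigned between the identical rows, neither difference can be given to one of them. With all pseudogene rows summed into their parent genes, which takes away Rps12l1 as a row of its own, no member passed. The remaining members in order of p were Rpl5 (log2 difference 0.99), Rps26 (-0.77) and Rps27l (-0.74), each with an adjusted p of 1.00 by limma.

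**Figure D5:**
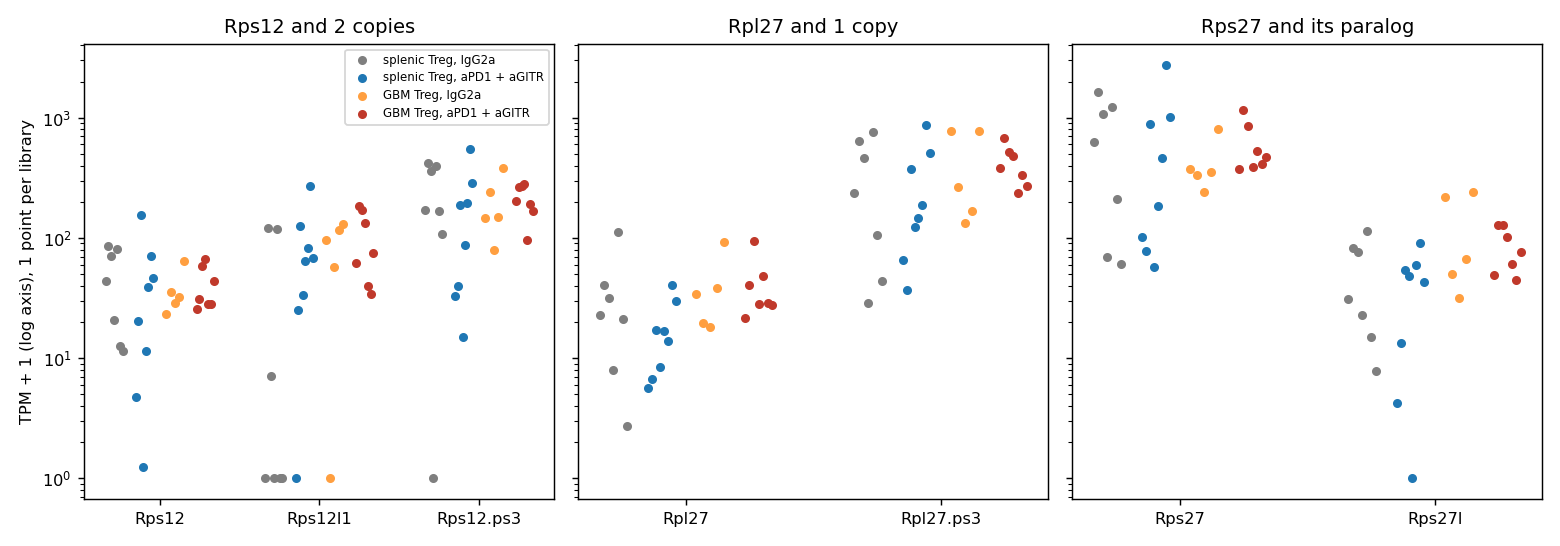
TPM + 1 on a log axis in each of the 27 libraries for Rps12 with its copies Rps12l1 and Rps12.ps3, for Rpl27 with its copy Rpl27.ps3, and for Rps27 with its paralog Rps27l; each point is a library and colors mark the 4 groups. The copies Rps12.ps3 (mean 202 TPM) and Rpl27.ps3 (mean 355 TPM) have higher means than their parent genes (41.2 and 31.2 TPM), although splenic IgG2a replicate 79_a has Rps12.ps3 at 0 and Rps12 at 19.6 TPM, and Rps12l1 is listed at 0 in 6 libraries, 4 of them splenic IgG2a.

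Whether the treatment difference itself differed between GBM and spleen was tested as an interaction over the 4 groups. Of 82 members 68 (82.9%) had a positive interaction, against 63.5% of all 8687 genes. A positive interaction is a signed log2 difference, αPD1 + αGITR minus IgG2a, that was more positive in GBM than in spleen. Medians were 0.45 for all genes and 0.46 for the members. The median was 0.29 with the number of detected genes as a covariate and 1.43 with limma's library weights, and ran from 0.20 (without splenic IgG2a replicate 79_b) to 0.91 (without splenic IgG2a replicate 79_a) with 1 library left out. By limma 0 members had an adjusted p under 0.05 (0% of all genes) and 0 had an unadjusted p under 0.05 (12.2% of all genes). The unadjusted, over 2-fold threshold was passed by 0 members, against 12.2% of all genes. The lowest limma p belonged to Rpl13 (interaction 1.10, SE 0.85, adjusted p = 0.623). Rps26 (1.33), Rps2 (1.14) and Rpl7l1 (1.29) were also among the lowest, with adjusted p of 0.641 to 0.656 by limma. Rps4l (1.53) is given as a description, since it entered through GBM αPD1 + αGITR alone, the group where it was highest. The median SE was 1.04 on the log2 scale, and a 2-fold difference between the tissues was within the error of most members. With limma's library weights 23 of 82 members passed the unadjusted threshold (13.8% of all genes), and without the 4 splenic libraries above 70% in the abundant features 3 did (17.3% of all genes), all of them positive. Across the 4 group comparisons, no member had values that did not overlap between the groups, while 1.48%, 3.00%, 2.19% and 0.0151% of all genes tested had such values in the order described.

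Genes that act with the ribosome were described from fixed lists, using the listed genes with a mean over 10 TPM in both groups compared. In the tissue comparison under αPD1 + αGITR, all genes over that level in both groups had a median log2 difference of 0.95, and 11.4% of them passed the adjusted and 37.1% the unadjusted threshold when fitted alone. The p-values of the listed genes, here and below, came from the fits of all genes tested. In that fit 17.5% and 40.2% of the 7506 genes passed in this comparison. The adjusted counts of the lists are therefore not directly comparable with the 11.4%. Of 24 other TOP mRNAs 22 had a positive log2 difference, with a median of 0.80, and 1 passed the adjusted threshold by limma. That gene was Vim (3.19), an intermediate filament protein. Of 19 initiation factors 18 had a positive difference, 0 passed the adjusted threshold and 5 the unadjusted, over 2-fold one, among them the cap-binding Eif4e (1.41) and Eif2s1 (1.57). Of 28 ribosome biogenesis genes 20 had a positive difference, 0 passed the adjusted threshold and 2 the unadjusted one. Of 13 genes of mTORC1 and TOP mRNA control 11 had a positive difference and 2 passed by limma: the Ragulator subunit Lamtor1 (1.98, adjusted p = 0.0345), which helps to anchor mTORC1 at the lysosome, and Eif4ebp1 (2.13, adjusted p = 0.0374), an inhibitor of Eif4e. The 4 ribosomal proteins under other symbols had a median of 0.90 and 0 passed the adjusted threshold by limma.

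Under IgG2a the same lists gave 0 genes past the adjusted threshold, with median tissue differences of 0.36 for other TOP mRNAs, 0.41 for initiation factors, -0.22 for ribosome biogenesis, 0.36 for mTORC1 and TOP mRNA control and 0.42 for the 4 other ribosomal proteins, beside 0.32 for all genes over 10 TPM in both groups. For αPD1 + αGITR against IgG2a the medians were 0.39, 0.44, 0.54, 0.90 and 0.53 in GBM (0.65 for all genes) and 0.01, 0.09, -0.13, 0.16 and 0.08 in spleen (0.09 for all genes), and 0 genes of these lists passed the adjusted threshold by limma. At the unadjusted, over 2-fold threshold 1 of 24 other TOP mRNAs, 3 of 19 initiation factors, 3 of 27 ribosome biogenesis genes and 3 of 12 genes of mTORC1 and TOP mRNA control were higher under αPD1 + αGITR in GBM, where 18.1% of all genes passed, among the last Eif4ebp1 (1.98), and 0 passed in spleen.

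Copies of ribosomal protein genes carried a steady part of the signal. The table held 291 rows named as pseudogenes of 61 members, of which 30 had a mean above 10 TPM and 15 above 100 TPM. Their sum was 9.32% to 16.3% of the member sum in a library, with a median of 14.1%. All 15 rows above 100 TPM aligned to a parent transcript at 99.1% identity or more, 10 of them without a mismatch. For 8 members the rows named as pseudogenes together had a higher mean than the gene itself. Rpl10 had 278 TPM against 509 TPM in its 6 rows so named, Rpl28 had 277 against 471 TPM, and Rps12 had 41.2 against 214 TPM in 23 rows. Levels of these members are therefore uncertain within the set of identical rows. Most of the level set against Rpl10 and Rps12 lay in their ps3 rows (486 and 202 TPM), which GENCODE M21 lists as protein coding.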

How the data were processed

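RNA of sorted Treg cells was sequenced by the authors with Smart-Seq2 on a NextSeq500 instrument. According to the methods, alignment to mm10 used TopHat, and TPM came from RSEM (the submitters' processing notes name TopHat2 and bcl2fastq). The deposited values are TPM plus 1, so 1 was subtracted. TPM keep no read depth, so precision rests on the number of libraries. Of 28 samples described, 27 had a named column, and 1 unnamed column was not used. A deposited sample sheet was not used.

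Rows entered a test when either group compared (or, for the interaction, any group) averaged over 10 TPM, and were tested as log2(TPM + 1) with limma 3.58.1 in R 4.3.3 (trended variance, Benjamini-Hochberg adjustment over all rows tested), and the interaction was fitted over the 4 groups. Fold changes on this scale understate those of low genes. Single members were also compared by two-sided exact permutation tests. The fits were first tested on simulated data. Alternatives covered the pseudocount, filter, scaling, covariate, library weights, groups in the fit, replicate block and each library left out. Genes were named by rule: the highest and lowest means, the 5 lowest p in each comparison, and members with a stalk, signaling or paralog role; Rps12 and other copy rows were added after their values were seen. Members, lists and rules were chosen with earlier results of these data known. Positions are from GENCODE M21 and start windows from RefSeq, both GRCm38. Some results are not reported here.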

Additional observations from a re-analysis of the deposited data

Results flagged for a closer look

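Within groups, 56 sets of values were examined for a library far from the others, of which chance marks about 1 in 20, and 3 were marked. In the GBM αPD1 + αGITR group, replicate 70_a had a log2 ratio of summed 60S to 40S levels of 0.845061 (a ratio of 1.80), while the other libraries of the group had ratios of 1.40 to 1.54. Rps12l1 was listed at 0 TPM, a log2(TPM + 1) of 0, in splenic αPD1 + αGITR replicate 70_a, where the other libraries of the group had 23.9 to 270.5 TPM. Rps12l1 was also listed at 0 in GBM IgG2a replicate 76_a, where the others had 55.8 to 130.1 TPM.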

How the results depend on the processing

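The members called in the main fits kept their direction in the alternatives in which they were tested. The direction of the member median did not hold throughout. For GBM against spleen under IgG2a it ran from 0.24 with summed pseudogene rows to -0.73 without the libraries over 70%. It also changed sign in the GBM treatment comparison (-0.01 to 0.70) and the splenic one (-0.79 to 0.09). Scaling on the members' median, summing pseudogene rows with their parent and leaving out libraries with over 70% of TPM in 10 features were chosen after seeing the data, and the causes of the changes below were not tested. For GBM against spleen under IgG2a, the count of members past unadjusted p 0.05 and 2-fold went from 1 to 0 with pseudocount 0.1, no filter, quantile normalization, rescaling without the 10 most abundant features, the replicate block and summed pseudogene rows, to 2 with library weights and to 10 without the libraries over 70%. Leaving out 1 library gave 0 to 2. The member called in the main fit was higher in GBM. Those called with library weights or without the libraries over 70% were all lower in GBM. Under αPD1 + αGITR the count of 2 became 1 with pseudocount 10, quantile normalization, rescaling, the replicate block and summed pseudogene rows, 0 when scaled on the members' median or without the libraries over 70%, and 21 with library weights (43.1% of all genes); leaving out 1 library gave 1 to 20. Its adjusted count of 0 became 1 with pseudocount 10 and 4 with library weights (28.3% of all genes), and 0 to 3 with 1 library left out. In GBM the treatment count of 1 became 0 with pseudocount 10, the filter in every group, TMM-type factors, all 4 groups in one fit, scaling on the members' median and summed pseudogene rows, 2 with quantile normalization (15.4% of all genes) and 4 with library weights (17.8%; adjusted count 1, 3.35%); leaving out 1 library gave 0 to 6. In spleen the count of 1 became 0 with summed pseudogene rows. The interaction count of 0 became 23 with library weights and 3 without the libraries over 70%, and 0 to 1 with 1 library left out. The median of all genes moved by over 0.1 under several scalings, for GBM against spleen under IgG2a from 0.48 to 0.23 with quantile normalization.

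The replicate block used the number shared by tissues. Over 9 pairs the correlation of deviations was -0.19 to 0.15, and 1 library correlated best with its own number. Splenic libraries differed widely in level, and the letters of shared numbers need not match between tissues. This check therefore cannot show that the tissues are unpaired. The main fits did not take the numbers as pairs.

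Depth is unknown, and groups held 5 to 8 libraries.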
